A study of Mus musculus with 12 samples.

Results

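The genes described here encode the proteins of the cytosolic ribosome, the particle that translates nuclear messenger RNA. They were chosen by symbol from the protein-coding genes of the mouse build GRCm38: names that open with Rpl, Rps or Rplp and go on with a number, leaving out the Rps6k kinases and predicted genes. The rule took 83 of 21631 genes, 31 of the small subunit and 52 of the large subunit, and no measured value entered it. It leaves out 5 ribosomal genes with other kinds of name, such as Rpsa and Fau, which are given apart. What was measured is H3K27ac, histone H3 acetylated at lysine 27, a mark of active promoters and enhancers. The values are peak lists from 6 ChIP-seq libraries of cultured mouse cells, in which DNA bound to the marked histone is pulled down and sequenced.

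A ribosome joins ribosomal RNA with one copy of most of its proteins, so the genes that encode these proteins are transcribed strongly in almost every cell and in near balance. Many of them start transcription at a cytosine followed by a run of pyrimidines, the terminal oligopyrimidine tract, through which mTOR signalling sets how well their messages are translated. Their promoters are short, often lack a TATA box, and are known for sites of SP/KLF, ETS and YY1 factors. Growth, insulin signalling and adipogenesis all draw on ribosome supply.

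The 6 libraries came from progenitors of subcutaneous fat, labelled adipocyte progenitor, from Azin2-/- mice (replicates 1, 2 and 8) and wild-type mice (replicates 1, 2 and 2b). Azin2 encodes antizyme inhibitor 2, which frees the polyamine enzyme ornithine decarboxylase from its inhibitor. All the cells had the same culture: 1 week of growth in 4.5 g/l glucose and 10% serum, 2 days of 5 µg/ml insulin, 1 µM rosiglitazone, 1 µM dexamethasone and 0.5 mM IBMX, and then 5 days of 5 µg/ml insulin. The labels name no Azin2 allele, strain, age or sex. They also do not state if each library is a separate animal, or how wild-type 2 and 2b are related. P-values then measure only the spread between these samples, which may be technical. The 6 input libraries were not analysed here.

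The deposited lists held 742335 to 1217494 peaks per library down to weak ones, so the 30000 of smallest p in each library were used. These covered 16.9 to 28.9 Mb of the genome, and read totals are not given. A gene was counted as having a peak where at least 1 bp of such a peak lay within 1 kb of either end of the gene. Of 8 adipocyte markers, Plin1 and Cebpa had a peak in all 6 libraries, and Adipoq, Cidec and Cd36 had none. Between 0 and 2 of 7 progenitor markers had a peak per library, and Pdgfra, Ly6a, Dpp4 and Pi16 had none. Markers of other cells had a peak at 0 to 1 of 5 (leukocyte), 0 to 1 of 4 (endothelial), 0 to 2 of 4 (skeletal muscle) and 0 to 1 of 3 (keratinocyte) per library. The muscle counts were 2, 2 and 1 in Azin2-/- 1, 2 and 8 and 0, 0 and 1 in wild-type 1, 2 and 2b. Myod1 had a peak in all 3 Azin2-/- and no wild-type libraries, as had 0.851% of all genes, and Myog and Myf5 had none. Whether the mixture of cells differs between the genotypes was not tested. Azin2-/- 1 stands apart in the deposited q-values: 54847 of its peaks have q of 0.05 or less, against 13843 to 21544 in the other libraries. In bulk cells, a smaller share of cells that carry the mark and less of it per cell cannot be told apart.

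The start regions of members at both ends of the range show what the family shares and what differs within it. Rps6 is the small-subunit protein phosphorylated by the S6 kinases, Rps19 serves small-subunit maturation, Rpl14 is a large-subunit protein, Rpl11 belongs to the particle of 5S ribosomal RNA, and Rplp0 is the base of the stalk that receives elongation factors. These 5 genes had a peak in all 6 libraries. Rps3, at the entry of the messenger RNA channel, Rps27, of the small subunit, and Rpl39, which lines the exit tunnel, had none. Each line gives 100 bases before the annotated start and 15 bases from it, from RefSeq on GRCm38.p6. Capitals mark matches on either strand to the letters GGGCGG, known for SP/KLF factors and called GC box here, CCGGAAG for ETS factors, CCATNTT for YY1, CACGTG for the E box and TATAAA for the box of that name. They also mark a start tract, meaning cytosine at the annotated start followed by 4 pyrimidines.
Rps6: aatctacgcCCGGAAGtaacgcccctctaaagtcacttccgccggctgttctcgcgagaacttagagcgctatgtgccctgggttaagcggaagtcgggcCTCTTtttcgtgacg
Rps19: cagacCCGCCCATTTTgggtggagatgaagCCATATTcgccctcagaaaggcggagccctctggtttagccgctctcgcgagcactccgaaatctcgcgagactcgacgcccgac
Rpl14: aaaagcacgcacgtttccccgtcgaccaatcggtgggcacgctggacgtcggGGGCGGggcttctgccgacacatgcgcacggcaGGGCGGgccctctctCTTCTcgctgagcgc
Rpl11: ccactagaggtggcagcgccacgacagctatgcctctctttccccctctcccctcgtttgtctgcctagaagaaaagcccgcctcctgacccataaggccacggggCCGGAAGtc
Rplp0: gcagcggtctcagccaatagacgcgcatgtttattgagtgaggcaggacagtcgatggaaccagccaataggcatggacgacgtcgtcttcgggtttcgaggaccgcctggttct
Rps3: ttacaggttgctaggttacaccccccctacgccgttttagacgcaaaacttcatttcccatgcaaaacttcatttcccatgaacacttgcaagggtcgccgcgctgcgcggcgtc
Rps27: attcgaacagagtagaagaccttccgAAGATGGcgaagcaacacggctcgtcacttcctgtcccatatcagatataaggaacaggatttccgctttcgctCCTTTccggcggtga
Rpl39: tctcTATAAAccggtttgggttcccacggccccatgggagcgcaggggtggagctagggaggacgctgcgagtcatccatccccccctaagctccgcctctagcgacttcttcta

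In the same order these windows are chr4:86857353-86857467 on the minus strand, chr7:24884492-24884606 on the plus strand, chr9:120571417-120571531 on the plus strand, chr4:136053379-136053493 on the minus strand, chr5:115559367-115559481 on the plus strand, chr7:99483695-99483809 on the minus strand, chr3:90213634-90213748 on the minus strand and chrX:37085208-37085322 on the minus strand. Rps6 holds 1 ETS match and a start tract. In Rps19 a GC box and a YY1 match overlap, and a YY1 match follows alone. Rpl14 holds 2 GC boxes and a start tract, and Rpl11 an ETS match just past its start. Rplp0, with a peak in every library, holds none of these letters in the window shown, and neither does Rps3, with no peak. Rps27 holds a YY1 match and a start tract and yet had no peak, and Rpl39 a TATA match far from its start.

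RefSeq start regions (250 bases before and 50 from the start) were matched for 63 of the 83 members and 17274 genes in all. Of these features the start tract had the largest ratio to the background: 13 member promoters held one, 20.6% against 2.19% of all promoters. ETS letters stood in 38.1% of member promoters against 12.1% of all, YY1 letters in 33.3% against 15.4%, and the GC box in 58.7% against 46.9%. E box letters (7.94% against 8.01%) and TATA letters (12.7% against 13.4%) were about as frequent as elsewhere. Within the family the GC box stood in 8 of 11 promoters of members with a peak in all 6 libraries and in 2 of 12 of members with none. ETS letters stood in 5 of 11 and 4 of 12, YY1 letters in 3 of 11 and 3 of 12, and the start tract in 4 of 11 and 3 of 12. Median GC content was 59.0% in the first group and 52.5% in the second, a narrower gap than the 65.7% and 48.7% of all genes with a peak in all libraries and in none. These are descriptions of letters, with no test.

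H3K27ac peaks marked ribosomal protein genes unevenly, from 25 to 53 of the 83 members per library. Azin2-/- 1 had a peak at 53 members (63.9%), against 51.0% of all genes in that library. In Azin2-/- 2 it was 34 members (41.0%; all genes 38.1%) and in Azin2-/- 8 it was 39 (47.0%; all genes 36.3%). Wild-type 1 had 34 members (41.0%; all genes 30.1%), wild-type 2 had 25 (30.1%; all genes 35.3%) and wild-type 2b had 50 (60.2%; all genes 40.7%). The member share was above that of all genes in 5 libraries and below it in wild-type 2. The mean excess was 8.61 percentage points ± 8.58 (SD, n = 6 libraries), which did not pass an exact two-sided sign-flip permutation test over libraries (p = 0.0938).

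A peak in all 6 libraries was found at 16 members (19.3%), close to the 18.0% of all genes. They were 8 of each subunit and included Rpl7, Rpl11, Rpl14, Rpl31, Rpl32 and Rplp0 of the large one and Rps6, Rps15, Rps19 and Rps20 of the small one. Counted within 1 kb of the RefSeq start, 13 of the 63 members with a known start had a peak in all 6 libraries (all genes 18.2%), against 11 of the same 63 by the gene ends. The 2 gained were Rpl19 and Rps27l, and those with no peak numbered 17 by the start and 12 by the gene ends. With at least 5 libraries there were 27 members, against a background of 28.0%. No peak in any library was found at 18 members (21.7%; all genes 38.1%). The remaining 49 of 83 (59.0%; all genes 44.0%) had a peak in 1 to 5 libraries. Of these, 16 members had a peak in 1 library alone (background 14.2%), 6 of them in Azin2-/- 1, 4 in wild-type 1, 3 in Azin2-/- 8, 2 in wild-type 2b, 1 in Azin2-/- 2 and 0 in wild-type 2.

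**Figure D1:**
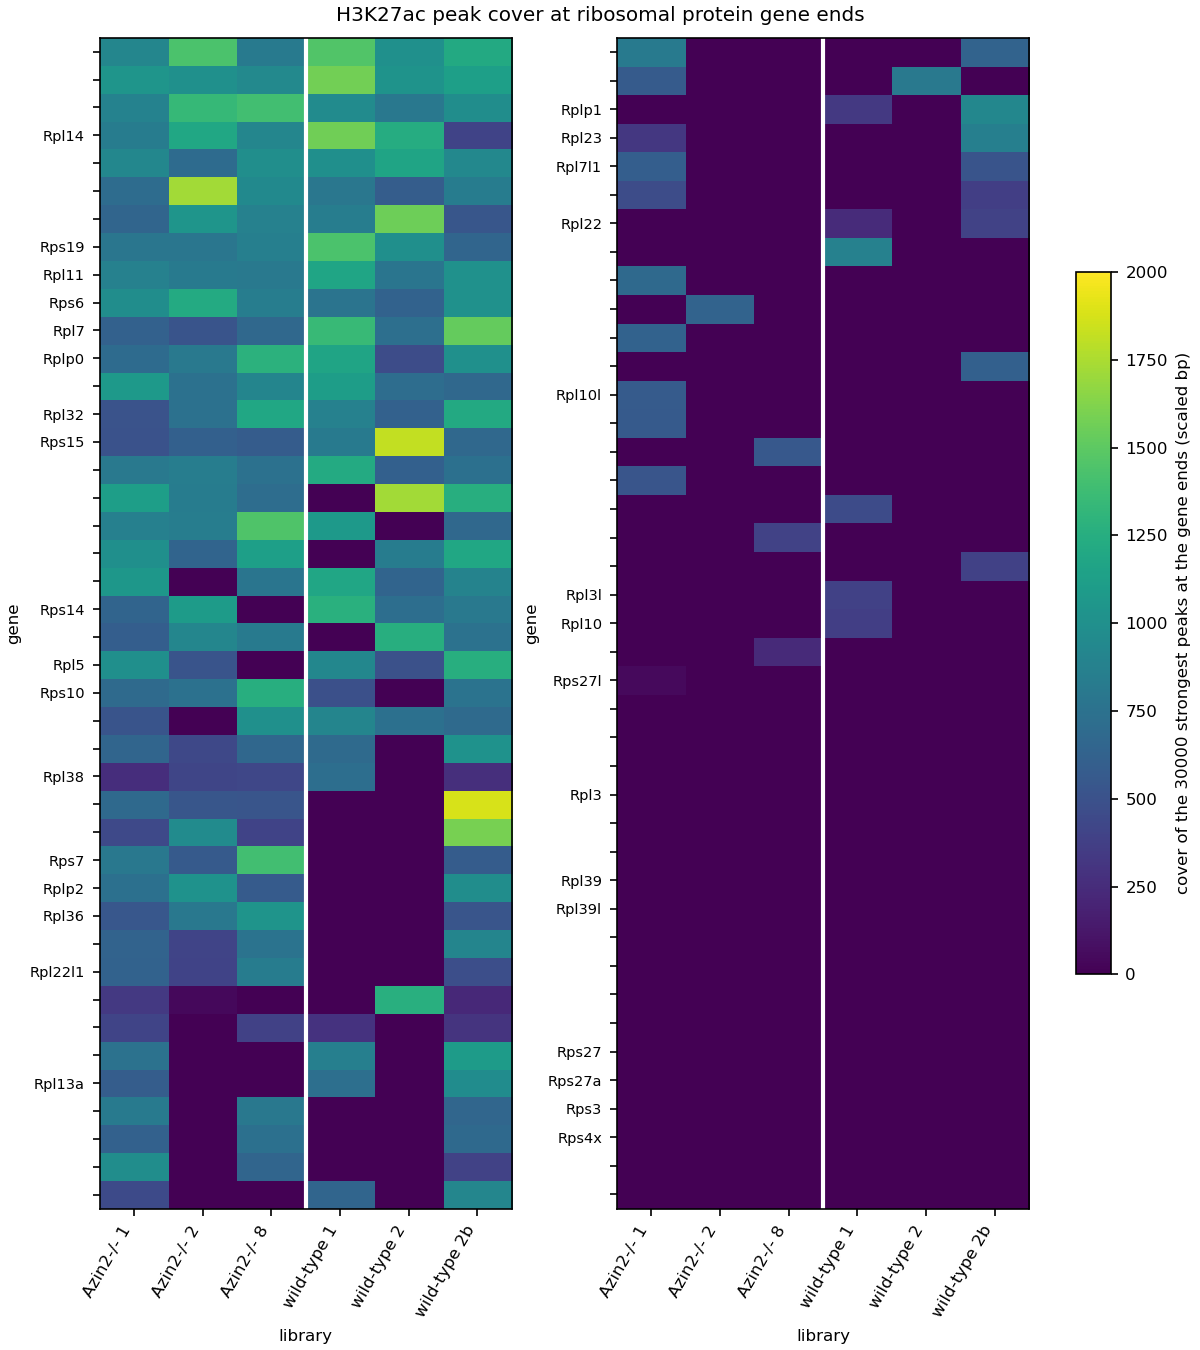
Cover of the 30000 strongest peaks within 1 kb of the gene ends, in bp scaled to equal total peak cover per library, for each of the 83 members (rows) in each library (columns, Azin2-/- left and wild-type right of the white line), with the members named by rule labelled. The top 16 rows on the left are coloured in every library, and the bottom 18 rows on the right are at 0 throughout.

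The members with no peak include Rps3, Rps27a, which is made as a fusion with ubiquitin, and Rpl3, whose protein reaches the peptidyl transferase centre. They also include Rps27, Rpl39 and Rps4x, and the paralog Rpl39l. Over the 18 members and 6 libraries, 97 of 108 pairs had some deposited peak at a gene end, with a median rank of 242833 in the library's list. Near the limit of 30000, Rpl23 was just inside at 29898 in Azin2-/- 1, and Rpl18 just outside at 30538 in Azin2-/- 2, and both had a peak in another library. With every deposited peak counted, 75 to 80 of the 83 members had one per library (90.4 to 96.4%), but so had 83.9 to 92.0% of all genes.

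Plain features of the genes were set side by side for both groups, with no test. Median gene length was 3410 bp for the 16 with a peak in all libraries and 2825 bp for the 18 with none, both far under the 17329 bp of all genes. Small nucleolar RNA genes, which many ribosomal protein genes carry in their introns, lay in 4 of the 16 and 7 of the 18. Another protein-coding gene had an end in the window at 4 of the 16 and 5 of the 18. That was so for 30 members in all (36.1%, against 25.1% of genes), and there a peak cannot be given to 1 of the 2 genes. Pseudogene copies are numerous: 62 members have at least 1 gene with their symbol and a -ps ending in the reference table, with a median of 1.5 in the first group and 1 in the second. Rpl31 has 24 such copies and a peak in all 6 libraries. The sources used here do not state how reads shared by such copies were placed.

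Mitochondrial ribosomal protein genes (78 genes) and nuclear genes of respiratory chain subunits (78 genes) are like families: housekeeping genes of small proteins. The share of members with a peak exceeded that of the mitochondrial ribosomal genes in 5 of 6 libraries, by 5.95 percentage points ± 5.79 (SD, n = 6). The reverse held in Azin2-/- 1, where 66.7% of the mitochondrial ribosomal genes had a peak. By the exact two-sided sign-flip permutation test over libraries, p was 0.0625, and 0.125 after Benjamini-Hochberg adjustment over the 2 families. Against the respiratory chain genes the excess was 3.60 points ± 4.77 (SD, n = 6), positive in 4 of 6 libraries (exact permutation p = 0.188, adjusted 0.188). Neither difference passed the threshold.

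**Figure D2:**
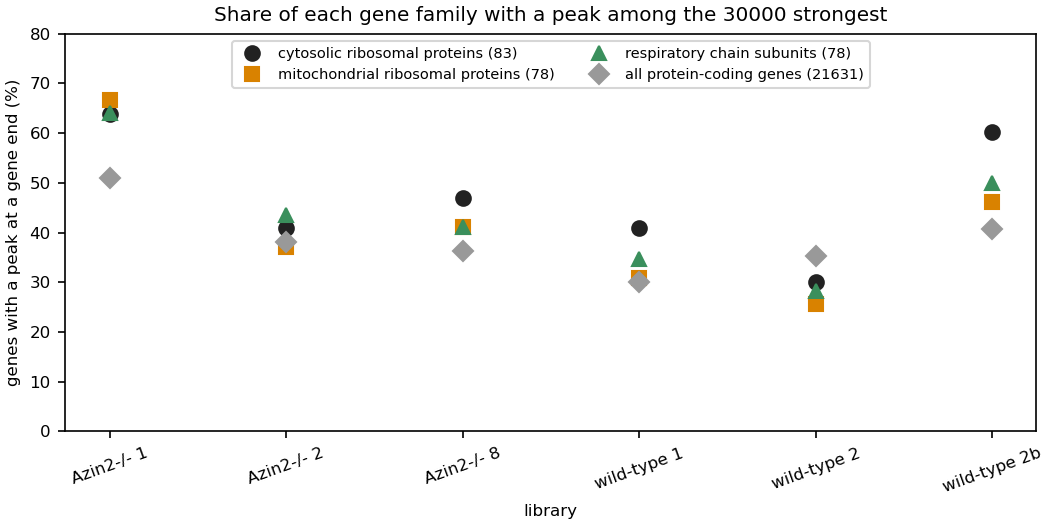
Share of genes marked at either end (y axis, %) in each library (x axis) for the cytosolic ribosomal proteins and 3 other gene sets. The black points run from 30.1% in wild-type 2 to 63.9% in Azin2-/- 1.

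The difference between the families passed the test in the lists of 5000 and 15000 peaks. It did not in lists limited to a q of 0.01 or less (adjusted p = 0.0625 for both families by the exact permutation test), and it turned to -1.11 points against the mitochondrial ribosomal genes with all deposited peaks. Among the 5000 strongest of each library, 26.1% of members had a peak on average, against 16.7% of mitochondrial ribosomal, 18.6% of respiratory chain and 19.3% of all genes. The member share then exceeded the mitochondrial ribosomal share by 9.44 points and the respiratory chain share by 7.51 points, in 6 of 6 libraries each. Among the 15000 strongest the excess was 8.51 and 5.09 points, again in 6 of 6 libraries. Each of these 4 differences had an adjusted p of 0.0312 by the exact permutation test, the smallest that 6 libraries can give. Among the 1000 strongest, 10, 5 and 14 members were found in Azin2-/- 1, 2 and 8 and 7, 1 and 6 in wild-type 1, 2 and 2b. The highest share was 16.9% in Azin2-/- 8, and shares of all genes ran from 4.02 to 4.57%.

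**Figure D3:**
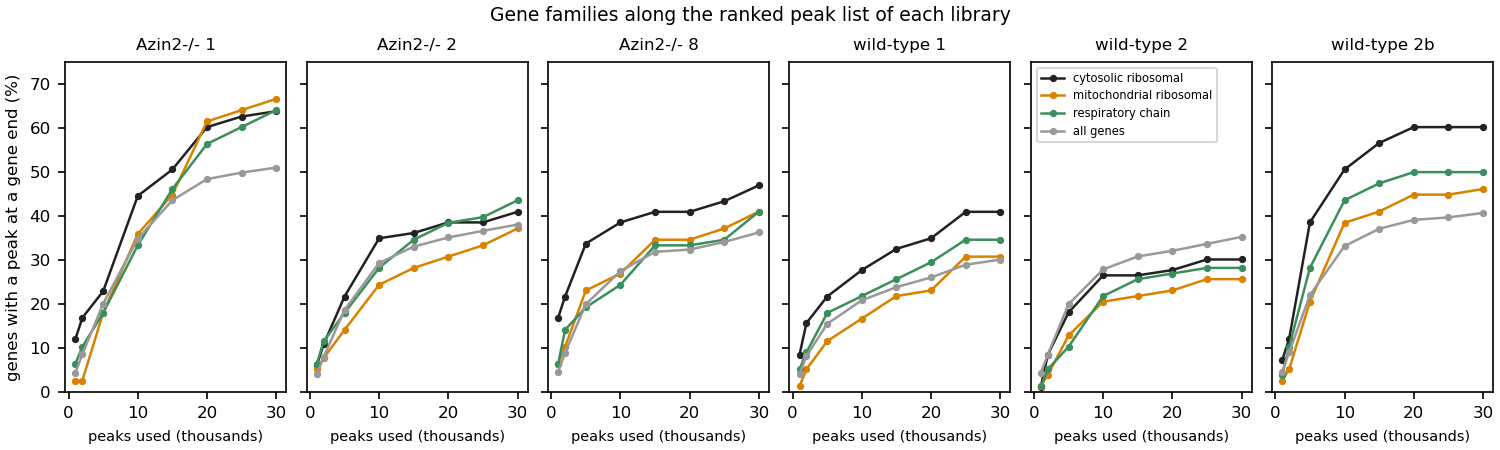
Share of genes with a peak (y axis, %) as more of each library's ranked peaks are counted (x axis, in units of 1000 peaks), 1 panel per library. The black line of the cytosolic ribosomal proteins is above both like families at 5000 and 15000 peaks in every panel, and under the grey line of all genes in wild-type 2 at every length drawn.

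The strongest peaks at members were wider than the median peak of their lists. The median width of the strongest peak at members was 880, 819 and 740 bp in Azin2-/- 1, 2 and 8 against 650, 760 and 1083 bp in wild-type 1, 2 and 2b. The medians of the main lists were 870, 645 and 629 bp and 454, 623 and 791 bp in the same order. Member medians were thus larger in each library, by little in Azin2-/- 1. The lists hold peaks from all parts of the genome, and the strongest peaks at other genes were not measured. Whether the width is particular to the family was therefore not tested.

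At members with a known start site, most peaks stood just inside the transcribed part. The 20 members without one, Rpl7 among them, are not counted here. Of 174 strongest peaks at members with a known start site, 155 (89.1%) had their summit within 1 kb of it, and 156 (89.7%) had it downstream. Peaks were searched only around the gene ends, which favours summits near the start. The downstream count also includes summits at the far end, such as Rpl7l1 at 9750 bp in Azin2-/- 1. Summits at other genes were not measured, so whether this position is particular to the family was not tested. The median summit lay 192.5 bp into the gene, and the medians of the 6 libraries ran from 172 to 215 bp. In the genes printed above, the Rps19 summit lay at 138, 166 and 162 bp in Azin2-/- 1, 2 and 8 and, in wild-type 1, 2 and 2b, at 249, 193 and 162 bp. For Rpl14 it lay at 192, 163 and 134 bp and at 164, 134 and 117 bp. The letters marked above for Rpl14 lie inside its peak in all 6 libraries, and those of Rps19 wholly so in the 3 Azin2-/- ones. Rpl19 was the clearest exception by this count, chosen after its values were seen. Its summits stood at -4070 to -4184 bp from the RefSeq start in 5 libraries, within 1 kb of the upstream end of the gene's span. That start lies 3783 bp from the nearer end of the span, so the gene-end windows searched here did not reach it. Within 1 kb of the start Rpl19 had 719, 580 and 958 bp in the Azin2-/- libraries and 1764, 1220 and 1079 bp in the wild-type ones.

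**Figure D4:**
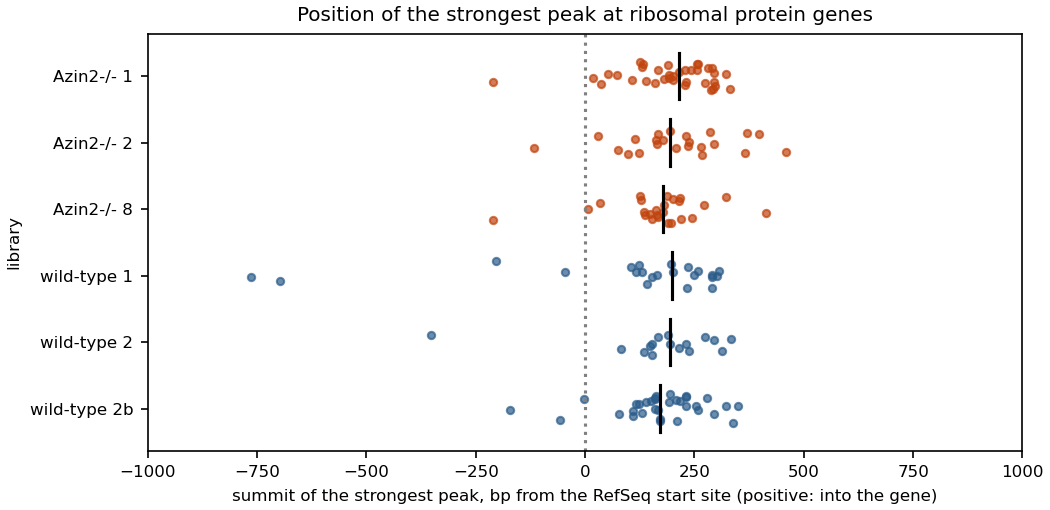
Position of the summit of the strongest peak at each member, in bp from the RefSeq start site (x axis, positive into the gene), by library (y axis); black bars are medians. Of 174 summits, the 155 within 1000 bp are drawn, and the medians of all 6 libraries lie at 172 to 215 bp.

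By rank, the strongest peaks of the family were at Rpl7, Rpl14 and Rpl32, of the large subunit, and Rps19 and Rps6, of the small one. Rpl7 had a median rank of 569 over the 6 lists, with a range of 50 to 1401. In all libraries but wild-type 2b this peak began past the end of the gene's span, at 16104433. Its first base ran from 16104454 in wild-type 1 to 16104926 in Azin2-/- 2. Rpl14 had 574.5 (135 to 2923), and Rpl32 had 700.5 (172 to 3948). Rps19 had 788, from 10 in Azin2-/- 2 to 7276 in Azin2-/- 1, and Rps6 had 1388, from 470 to 9813. So Azin2-/- 1 gave the lowest place to Rps19, Rps6 and Rpl32 and a high one to Rpl7 and Rpl14. The median rank over the 16 members with a peak in all libraries was 1889, against 2971 over the 3888 genes of that kind.

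Cover is the length of strong peaks within the windows, scaled to equal total peak cover per library. A peak that runs past a window is cut at its edge, so cover is not the width of the peak. The Rpl7 peak runs past its window in every library. In Azin2-/- 1 it was 1763 bp wide, and the scaled cover of Rpl7 was 621 bp. In Azin2-/- 1, 2 and 8 the cover of Rps6 was 977, 1219 and 845 bp, and in wild-type 1, 2 and 2b it was 767, 626 and 1009 bp. Rps19 had 788, 783 and 863 bp against 1434, 997 and 652 bp in the same order. Rpl14 had 841, 1195 and 919 bp against 1569, 1241 and 399.6 bp. The groups overlap for all of these, and the wild-type values are the more spread for Rps19 and Rpl14. Rpl32 had 512, 750 and 1195 bp against 881, 618 and 1215 bp, again overlapping.

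The stalk, the flexible arm that recruits elongation factors, showed 3 different patterns. Its base, Rplp0, had 698, 805 and 1288 bp in Azin2-/- 1, 2 and 8 against 1165, 461 and 1006 bp in wild-type 1, 2 and 2b. Rplp2 had 741, 1018 and 574 bp in the Azin2-/- libraries, 0 in wild-type 1 and 2, and 982 bp in wild-type 2b. Rplp1, which pairs with Rplp2, had 0 in all Azin2-/- libraries and 335, 0 and 923 bp in wild-type 1, 2 and 2b. The dimer's partners thus differed in where peaks were found, and only Rplp0 of the 3 was marked throughout.

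Rpl5 and Rpl11 carry 5S ribosomal RNA into the large subunit and bind MDM2 when assembly fails. Rpl11 was steady: Azin2-/- libraries had 882, 818 and 808 bp and wild-type ones 1176, 775 and 1010 bp. Rpl5 had 995, 518 and 0 bp against 929, 499 and 1253 bp. It lacked a peak among the strongest in Azin2-/- 8 alone, where its deposited peak ranked 83983. Of 18 members whose human counterparts are mutated in Diamond-Blackfan anaemia, 5 had a peak in all libraries (27.8%) and 2 in none (11.1%). Of 7 members at the exit tunnel, 1 had a peak in all (14.3%) and 3 in none (42.9%). Over all genes the shares were 18.0% and 38.1%, and these small groups were not tested.

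Other well-known members were marked in part. Rpl13a, a large-subunit protein that can leave the ribosome to silence inflammatory messages, had 591, 0 and 0 bp against 731, 0 and 970 bp (Azin2-/- against wild-type libraries, in the order above). Rpl38, needed for the translation of Hox messages, had 260, 422 and 429 bp against 725, 0 and 267 bp. Its RefSeq start lies 762 bp inside the span, and the gene-end window cuts its peak. Within 1 kb of that start Rpl38 had 854, 709 and 779 bp against 1100, 0 and 580 bp. Rpl23, another MDM2 binder, was marked in Azin2-/- 1 (326 bp) and wild-type 2b (866 bp) alone. The same pair of libraries held Rps12, Rpl7l1 and Rpl18, named for that pattern, which 1.66% of all genes show. These 2 libraries also had the widest peaks and the largest gene counts, and the part of this in the pattern was not tested.

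Paralogs are second copies often used in particular tissues, and for them the choice of window mattered. Rps27l, which p53 induces, had only 53 bp in Azin2-/- 1 by the gene ends, but its RefSeq start lies 1462 bp inside the annotated span. Within 1 kb of that start it had 888, 596 and 934 bp in the Azin2-/- libraries and 1109, 521 and 882 bp in wild-type 1, 2 and 2b, a peak in all 6. Rpl10l, a testis form, had a peak in Azin2-/- 1 alone (577 bp). Rpl3l, the form of striated muscle, was marked in wild-type 1 (383 bp) and Rpl7l1 in Azin2-/- 1 (594 bp) and wild-type 2b (523 bp), but neither within 1 kb of its RefSeq start. Rpl39l was marked nowhere. Rpl22l1 had 631, 404 and 837 bp in the Azin2-/- libraries, 0 in wild-type 1 and 2, and 482 bp in wild-type 2b. Its parent Rpl22 was marked less, with 250 bp in wild-type 1 and 396 bp in wild-type 2b alone. Of the parents of these 6 paralogs only Rpl7 had a peak in all libraries, and Rpl3, Rps27 and Rpl39 had none. By the same gene-end windows Rpl3, Rpl10, Rpl22, Rpl39 and Rps27 had peaks in no more libraries than their paralogs. Rpl32l, a short gene named like a paralog of Rpl32, had none, while Rpl32 had a peak in all 6.

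The 4 X-linked members were Rpl10, which helps shape the catalytic centre, Rpl36a, Rpl39 and Rps4x. Peaks were found in wild-type 1 alone, at Rpl10 (371 bp) and Rpl36a. The Rpl36a peak lay past the far end of the gene, with its summit 3544 bp from the RefSeq start. Within 1 kb of that start Rpl36a had no peak in any library. Over all X-linked genes the share with a peak was 8.18 to 25.3% per library, lower than on the autosomes in each. Of the 14 members on chromosome 7, 5 had no peak and 3 had one in all libraries, against 48.6% and 12.1% of all genes on that chromosome.

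No ribosomal protein gene passed the test for a difference between the genotypes. Azin2-/- libraries had a peak at 42.0 ± 9.85 members and wild-type libraries at 36.3 ± 12.7 (SD, n = 3 each), while the counts over all genes were 9040 ± 1742 and 7648 ± 1150. Mean cover over the 83 members averaged 387 ± 54.9 bp over Azin2-/- libraries and 381 ± 108 bp over wild-type ones (SD, n = 3 each). The ranges overlap for both, the cover difference turned to -17.7 bp with the 15000 strongest peaks, and 3 against 3 libraries cannot go below an exact permutation p of 0.1. In the limma fit to log2(scaled cover + 200 bp), 0 of 9707 genes had an adjusted p under 0.05 (0.00%), so 0 of the 45 members that reached the minimum mean of 200 bp did. At an unadjusted p under 0.05 there were again 0 members in either direction, against 3.53% of all genes higher and 1.41% lower in Azin2-/-. The other 38 members fell under the minimum. A log2 difference above 0 was found for 25 of 45 members (55.6%, all genes 56.4%), and the median difference was 0.10 for members and 0.10 for all genes.

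The 5 members of smallest p in each direction are described, and none passed. Values are given for Azin2-/- 1, 2 and 8 against wild-type 1, 2 and 2b. Rps7, of the small subunit, had 801, 566 and 1392 bp against 0, 0 and 582 bp, a log2 difference of 1.76 ± 0.88 (SE; limma adjusted p = 0.686). Rpl36, of the large subunit, had 539, 797 and 1036 bp against 0, 0 and 530 bp, a log2 difference of 1.65 ± 0.87 (SE; limma adjusted p = 0.686). Its groups do not overlap and it was the only member so in this direction (background 6.74%). The gap is narrow, with 539 bp in Azin2-/- 1 against 530 bp in wild-type 2b. The windows of Rpl36 also hold 2 ends of other protein-coding genes, so its cover cannot be given to Rpl36 alone. For Rpl22l1 the log2 difference was 1.42 and for Rplp2 it was 1.41, with limma adjusted p of 0.688 and 0.711. Rps10, in the head of the small subunit, had 689, 745 and 1256 bp against 490, 0 and 758 bp, a log2 difference of 1.07. The Rps10 difference turned to -0.061 with the 15000 strongest peaks, and with all deposited peaks it was -0.35 for Rpl36 and -0.71 for Rplp2. In 4 of these 5 the wild-type peak was in 2b alone.

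On the other side, Rpl7 had 621, 521 and 674 bp against 1351, 732 and 1527 bp, a log2 difference of -0.76 ± 0.39 (SE; limma adjusted p = 0.686). Rps15, which serves export of the small subunit from the nucleus, had 507, 615 and 580 bp against 822, 1819 and 676 bp, a log2 difference of -0.67 ± 0.46 (SE; limma adjusted p = 0.714). These were the only 2 members whose groups do not overlap with Azin2-/- lower (background 4.42%), and both have a peak in all 6 libraries. Without the scaling the groups of both genes overlap. Rps15 then had 631 bp in Azin2-/- 1 against 596 bp in wild-type 1. For Rpl7, Azin2-/- 1 (scale factor 0.804) then exceeds wild-type 2 (scale factor 1.06). For Rplp1 the log2 difference was -1.30, and for Rpl5 it was -0.91. With all deposited peaks Rplp1 turned to 0.18. Rps14, a small-subunit protein lost in the 5q deletion of human myelodysplasia, had 641, 1101 and 0 bp against 1267, 721 and 812 bp, a log2 difference of -0.88. Without Azin2-/- 8, which has no peak at either gene, the difference was -0.085 for Rps14 and -0.18 for Rpl5.

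**Figure D5:**
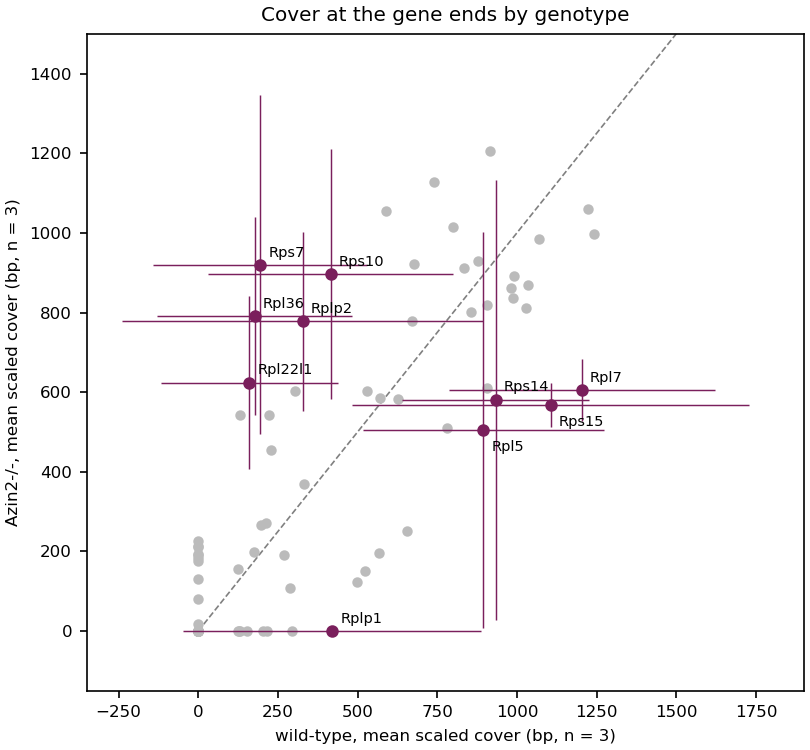
Mean scaled cover at the gene ends in wild-type (x axis, bp) and Azin2-/- libraries (y axis, bp) for all 83 members, with the 5 of smallest limma p in each direction in purple and their SD over 3 libraries as bars. The dashed line is equal cover, and Rpl7 lies at 606 bp for Azin2-/- against 1204 bp for wild-type libraries.

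No member had a peak in all 3 Azin2-/- and no wild-type libraries (background 0.851%), and none the reverse (0.0601%). More Azin2-/- than wild-type libraries had a peak at 27 members (32.5%; background 25.2%), and fewer at 15 (18.1%; background 11.7%). A peak in all 3 Azin2-/- libraries and, of the wild-type ones, in 2b alone was found at 7 members: Rps7, Rps13, Rps21, Rps29, Rpl36, Rpl22l1 and Rplp2. That is 8.43% of members and 1.96% of all genes, a pattern noticed in these data and not tested. Its direction therefore rests on the missing peaks of wild-type 1 and 2, and those libraries had peaks at fewer members (34 and 25) than wild-type 2b (50).

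Genes that work with the ribosome give the setting. Of 44 translation factors, 22 had a peak in all 6 libraries and 3 in none, and of 21 regulators of growth and mTOR signalling, 12 and 2. Among 47 genes of ribosome biogenesis it was 10 and 10, and among the 5 ribosomal genes outside the naming rule 3 and 0. None of the genes in these 4 lists passed the limma test. Over the members tested, the median log2 difference was -0.07 for 36 translation factors, -0.14 for 18 growth regulators and 0.19 for 24 biogenesis genes. It was 0.45 for 42 mitochondrial ribosomal genes, 30 of them above 0, and 0.23 for 41 respiratory chain genes. Over all 9707 genes tested it was 0.10, with 5475 above 0 (56.4%), and the differences between lists were not tested. The genes of smallest p included Eif4e, the cap-binding factor (log2 difference -2.17, limma adjusted p = 0.686), and Polr1d, a subunit shared by RNA polymerases I and III (1.31, limma adjusted p = 0.686).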

How the data were processed

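H3K27ac ChIP-seq peak lists of 6 libraries were analysed, 3 Azin2-/- and 3 wild-type. The authors deposited 1 list per library on GRCm38 (mm10), per the submitters' processing notes. The sources used here name no aligner, peak caller, control or duplicate handling. Each deposited peak has a score, a fold ratio over local background and −log10 p and q-values. These are the authors' and served only to rank, filter and describe peaks within a list. Read depth is unknown, so no counting interval is given.

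From chromosomes 1 to 19 and X the 30000 peaks of smallest p per library were kept. A gene had a peak where at least 1 bp fell within 1 kb of either gene end. Cover is the bp of kept peaks in these windows, scaled to equal total cover per library. Because cover is not a count, limma 3.58.1 (R 4.3.3, eBayes with trend) was run on log2(cover + 200 bp) for genes whose mean cover was 200 bp or more, with Benjamini-Hochberg adjustment at 0.05. Family shares were compared by exact sign flips over 6 libraries. A p per library count or mean cover over the members is not given. Python 3.11.15 was used for the rest. Start sites and promoters were from RefSeq (GRCm38.p6), and 20 members without an entry have no start site here.

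Named were the paralogs with their parents, the stalk and 5S particle genes, Rps6, Rps3, Rps19, Rpl10, Rps27a, Rpl13a, Rpl38 and Rpl23, the 5 members of smallest median rank and the 5 of smallest limma p in each direction. Not every gene that the rule names in other lists is printed, and some members are counted but not reported by name here. Members, lists and tests were chosen with earlier results of these data known. Alternatives were other list lengths, q thresholds, windows, pseudocounts, scalings, a replicate block and each library left out.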

Additional observations from a re-analysis of the deposited data

How the results depend on the processing

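In 25 alternatives 0 members passed the limma test. Over all genes, 0 passed except with fixed windows of 250 bp around summits (167 higher and 8 lower in Azin2-/-) and without the mean trend (121 and 5). Members with a peak in all 6 libraries numbered 4 with the 5000 strongest peaks and 60 with all deposited peaks, and 16 to 20 with 1 library left out.

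The excess of members over mitochondrial ribosomal genes was 8.51 points with 15000 peaks, 9.44 with 5000 and -1.11 with all peaks, and that over respiratory chain genes 5.09 and 7.51 with 15000 and 5000. The member count, Azin2-/- minus wild-type, was 5.67, -2.0 with all peaks, and 0.0 (without wild-type 2) to 12.5 (without wild-type 2b) with 1 library left out, 0.167 without Azin2-/- 1 and 9.67 without Azin2-/- 2. Mean cover (difference 5.42 bp) turned to -17.7 bp with 15000 peaks, -46.3 at q of 0.05, -62.4 at q of 0.01, -77.3 with all peaks and -26.2 with gene-end scaling. With 1 library left out it ran from -45.1 bp (without wild-type 2) to 62.0 bp (without wild-type 2b), and was -21.1 bp without Azin2-/- 1 and -0.605 bp without wild-type 1. The cause was not tested.

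The members' median log2 difference was -0.049 with 5000 peaks, -0.15 at q of 0.05, -0.13 at q of 0.01, -0.057 with all peaks and -2.23e-05 with fixed windows, and -0.21 to 0.22 with 1 library left out. With all peaks the log2 difference was -0.35 for Rpl36, -0.71 for Rplp2 and 0.18 for Rplp1. For Rps10 it was -0.061, -0.0065, -0.33, -0.23 and -0.016 with 15000 peaks, 5000 peaks, q of 0.05, q of 0.01 and all peaks. The labels share only numbers 1 and 2 between genotypes (correlation of deviations across genes -0.02 and 0.15), with no statement of pairing. With the replicate number as a block, 0 genes passed and Rpl5 had 0.060. Start-site windows could be made for 63 members only, of which 13 had a peak in all libraries, against 11 of these by the gene ends.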
